A study of Rattus norvegicus with 10 samples.

Results

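The sequences described here are heavy-chain CDR3s that were shared between rats immunized with a dinitrophenyl (DNP) conjugate and were not seen in rats immunized with HuD. A CDR3 was a member when its amino acid sequence, as IMGT delimits it, occurred in at least 1 productive read of at least 2 of the 5 DNP animals and in none of the 5 HuD animals. There were 1095 members among the 215200 unique CDR3s of the 10 animals, which is 0.509%. The rule used presence alone, so the presence of the members and their read numbers are given as a description, with no test. In all, 985 members were found in 2 DNP animals, 97 in 3, 11 in 4 and 2 in all 5.

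The series holds immunoglobulin heavy-chain transcripts from the spleens of Wistar rats, with 1 library per animal. The animals were outbred, and were described as littermates. The 5 DNP animals received DNP coupled to keyhole limpet hemocyanin (KLH), a large carrier protein, and the 5 HuD animals received HuD, a neuronal RNA-binding protein. Both groups were given Freund's adjuvant and booster injections, and no unimmunized animal was included. The hapten, its carrier and the HuD protein differ between the groups at once, so sequences raised by DNP and by KLH cannot be told apart here.

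The CDR3 is the loop of the antibody heavy chain that spans the junction of the V, D and J gene segments. Bases are trimmed and added at this junction while a B cell develops, so the CDR3 is the most diverse part of the antibody, and it often contributes strongly to binding the antigen. After immunization, activated B cells divide and mutate their variable domains, and one such family of cells is a clone. CDR3s found in several individuals are commonly called public. They can come from separate rearrangements that give the same protein sequence, and short loops with few added bases are found in this way more often than long ones.

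The following members are shown because they were the most widely shared, the most abundant, or the most typical of a group of similar sequences. Each is read from the first residue of the CDR3 to the last, with the read number in every DNP animal that held it.
TTDAAY: 22, 1, 65, 673 and 7 reads in DNP1 to DNP5.
ARPDH: 129, 1, 105, 27 and 48 reads in DNP1 to DNP5.
ARGNYGGYDY: 4, 18, 120 and 105 reads in DNP2 to DNP5.
VRWYNSGYYFDY: 1005 reads in DNP3, 1 in DNP4 and 451 in DNP5.
ARGGSGIWFAY: 469 reads in DNP3 and 7 in DNP4.
ARWVWYFDY: 608 reads in DNP3 and 492 in DNP4.
ARHVLPLRVWDY: 3409 reads in DNP3 and 16 in DNP4.
TTDAAY and ARPDH were the members found in all 5 DNP animals. Both were represented by a single read in DNP2, and the animal that held most of their reads was not the same.

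Different codons for the same residues were read for several members, and the sections below show where. Each is written 5′ to 3′ on the coding strand, with the codons that differ between animals in capitals. Residues are counted from 1 at the start of the CDR3. Some sections rest on very few reads. ARGGFGIWFAY had 2 reads in DNP4, and ARGGYGIWFAY had 2 in DNP1 and 2 in DNP5. VRWYNSGYYFDY had 1 read in DNP4 and ARHGRREWDY 1 in DNP5.
ARGGSGIWFAY, residues 4 to 6 in DNP3: gggAGCggg
ARGGSGIWFAY, residues 4 to 6 in DNP4: gggTCTggg
ARGGFGIWFAY, residues 4 to 6 in DNP1: GGATTCggg
ARGGFGIWFAY, residues 4 to 6 in DNP4: GGGTTTggg
ARGGYGIWFAY, residues 4 to 6 in DNP1: GGTTACggg
ARGGYGIWFAY, residues 4 to 6 in DNP4: GGGTATggg
ARGGYGIWFAY, residues 4 to 6 in DNP5: GGGTACggg
VRWYNSGYYFDY, residues 5 to 7 in DNP3 and in DNP4: aattcgGGG
VRWYNSGYYFDY, residues 5 to 7 in DNP5: aattcgGGA
ARYSLRRVWDY, residues 4 to 6 in DNP3: TCCCTAcgg
ARYSLRRVWDY, residues 4 to 6 in DNP4: TCTTTAcgg
ARHGRREWDY, residues 3 to 5 in DNP1: catGGAAGG
ARHGRREWDY, residues 3 to 5 in DNP3, DNP4 and DNP5: catGGGCGG
ARHVLPLRVWDY, residues 5 to 7 in DNP3 and in DNP4: ctcccttta
The serine of ARGGSGIWFAY was encoded by AGC in DNP3 and by TCT in DNP4, codons that differ at all of their bases. ARHVLPLRVWDY had the same bases in both animals, in a section read from 3266 reads of DNP3 and 16 of DNP4.

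Certain libraries stood apart, and every result below should be read beside them. DNP3 and DNP4 had 322 members in common and DNP2 and DNP5 had 174, and the abundant sequences of these pairs overlapped more than those of other pairs. Of the 200 most abundant CDR3s of a DNP animal, between 34 and 88 (median 48.5) were found in the other library of these 2 pairs. Between 3 and 20 (median 9.5) were found in any other DNP animal, and between 1 and 11 (median 4) in a HuD animal. With each of these pairs counted as 1 animal, an alternative chosen after seeing the data, 681 CDR3s met the rule in place of 1095. The study looked for index hopping, which it named as a possible source of shared sequences, and reported finding none. Whether reads passed between these libraries was not tested here.

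A second difference concerned the J segment. In DNP1, DNP3, DNP4 and DNP5, 62.3%, 57.3%, 52.4% and 50.6% of the unique CDR3s annotated as IGHJ4 ended in AMDA, against 3.26% in DNP2 and between 0.78% and 1.64% in the HuD animals. The ending VMDA was found in 2.11%, 3.24%, 1.60% and 1.28% of those of DNP1, DNP3, DNP4 and DNP5, against 65.8% in DNP2 and between 58.1% and 66.4% in the HuD animals. By unique CDR3s, DNP2 lay near the HuD animals. By reads it lay between the groups for AMDA, which ended 18.2% of its IGHJ4 reads, against 39.98% to 57.4% in the other DNP animals and 0.201% to 1.54% in the HuD animals. The residue after WGQG in the framework that follows the CDR3 differed in the same way. It was T, as in WGQGTSVTVSS, in 89.5%, 90.6%, 86.7% and 76.3% of IGHJ4 reads of DNP1, DNP3, DNP4 and DNP5, in 10.3% of those of DNP2 and in 4.91% to 12.7% of those of HuD animals. The annotation named the same allele, IGHJ4*01, throughout. For 12 of the 81 IGHV genes with at least 100 reads, the share of reads in all of DNP1, DNP3, DNP4 and DNP5 was at least 5-fold below the range of the HuD animals, and for 8 of these DNP2 was inside that range. IGHV5-29 took 0.361%, 0.038%, 0.581% and 0.370% of reads in DNP1, DNP3, DNP4 and DNP5, 6.14% in DNP2 and 8.66% to 19.5% in HuD animals. These genes were chosen after their values were seen. Apart from DNP2, immunization and this difference in the J and V segments cannot be told apart.

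**Figure D1:**
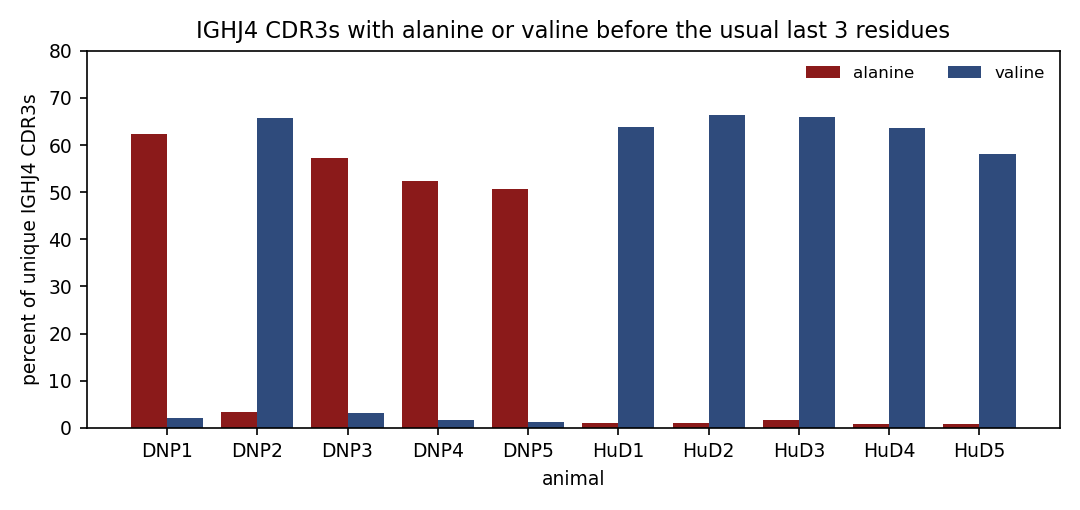
Percent of the unique IGHJ4 CDR3s of each animal that ended in AMDA or in VMDA, with DNP animals left of HuD animals. AMDA lay between 50.6% and 62.3% in DNP1, DNP3, DNP4 and DNP5, and DNP2 (3.26%) lay beside the HuD animals.

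The rule favours the same difference among the members, since they had to be absent from HuD animals, where AMDA was rare and VMDA common. The numbers below are therefore a description and no separate support. Members ending in AMDA numbered 133 (12.1%) and those ending in VMDA 2 (0.183%). Among the 1638 CDR3s shared by at least 2 HuD animals and absent from DNP animals, the corresponding numbers were 1 (0.0611%) and 135 (8.24%). Among CDR3s of 1 animal, 3.55% ended in AMDA and 6.93% in VMDA. Unique IGHJ4 CDR3s ending in AMDA numbered 1885 of the 15558 unique CDR3s of DNP1 and 98 of 21797 in DNP2. They numbered 513 of 6568 in DNP3, 3399 of 32154 in DNP4 and 1624 of 13811 in DNP5. The AMDA members were spread over DNP1 to DNP5 as 78, 9, 50, 96 and 60 sequences, with 516, 2010, 121, 9576 and 896 reads. ARSGYYAMDA, with 11, 1, 2 and 1 reads in DNP1, DNP3, DNP4 and DNP5, was one of those found in 4 animals. ARHNNYYAMDA and ARHNSGYAMDA had 5 reads each over DNP1, DNP3, DNP4 and DNP5, and neither had a read in DNP2. With all IGHJ4 sequences left out, an alternative also chosen after seeing the data, 914 members remained.

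The members were a small part of the unique sequences of each DNP animal and a larger part of the reads. A read here is the consensus of all sequenced copies with the same molecular tag. DNP1 to DNP5 held 406, 324, 420, 708 and 457 members, which were 2.61%, 1.49%, 6.39%, 2.20% and 3.31% of their unique CDR3s. Their reads numbered 7314, 17741, 18624, 70052 and 18529, which were 5.25%, 14.3%, 30.7%, 27.0% and 20.2% of the productive reads of these animals. The mean share of reads was 19.5 ± 10.1% (SD, n = 5). DNP3, the smallest library, had the largest share, and DNP1 the smallest.

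The 1615896 productive reads were spread unevenly, with 139441, 123799, 60647, 259834 and 91649 in DNP1 to DNP5 and 156272 to 224573 (median 184166) in the HuD animals. Absence from the HuD group is limited by this depth, since 0 reads over all HuD animals allow a level of up to 3.19 RPM (3 counts over the group, counting error only), where RPM is the per-million share of productive reads. Thinned to equal numbers of reads, 701 ± 16.2 CDR3s met the rule (SD over draws), against 552 ± 15.8 for the same rule with the groups exchanged. Without thinning the order was the other way, with 1095 and 1638.

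Few members carried most of their reads. The members had 132260 reads in all, of which the 10 most abundant took 16.6% and the 100 most abundant 67.9%. The median member had 10 reads. Among members with more than 1 read in at least 1 animal, the median share of the animal with the most reads was 92.3%. In 875 members (79.9%) at least 1 of the sharing animals had a single read, and in 296 (27.0%) every sharing animal did. There were 183 members (16.7%) with at least 100 reads in 1 animal and at most 3 in the others. By contrast, 58 members (5.30%) had at least 10 reads in 2 animals and 5 (0.457%) had at least 100 in 2.

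The most abundant members show this skew. ARHVLPLRVWDY had 3425 reads, and ARWPGYNPPYAMDA had 2991 in DNP4 and 2 in DNP3. ARWSSSHWYFDF had 1901 reads in DNP3, with 4 and 1 in the other animals that had it. ARLGWHGWFAY had 1553 reads in DNP5 and 8 in DNP2, and it was read with IGHV4-2 and IGHJ3. ARQPTGMDY was in 4 animals, with 882 reads in DNP5, 2 in DNP1, 1 in DNP2 and 1 in DNP3, and 92.9% of its reads were annotated as IGHV3-1. Each of these had a single dominant animal.

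Members abundant in more than 1 animal were rarer. ARYSLRRVWDY had 791 reads in DNP3 and 86 in DNP4. ARHYTY, a loop of 6 residues, had 464 reads in DNP5 and 120 in DNP1, and its threonine was encoded by ACT in DNP5 and by ACC in DNP1. ATGSNWFAY had 132 reads in DNP1 and 41 in DNP4, with AGT and TCA for its serine. AKGTGGFAH had 55 reads in DNP1 and 38 in DNP5, with ACT and ACC for its threonine. AKDGRAMDA had 204 reads in DNP4 and 54 in DNP1. ASTYYGY had 34, 203 and 32 reads in DNP1, DNP3 and DNP4, of which 95.2% were annotated as IGHV4-2. For ARHYTY, ATGSNWFAY and AKGTGGFAH the protein sequence was the same while the bases were not.

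**Figure D2:**
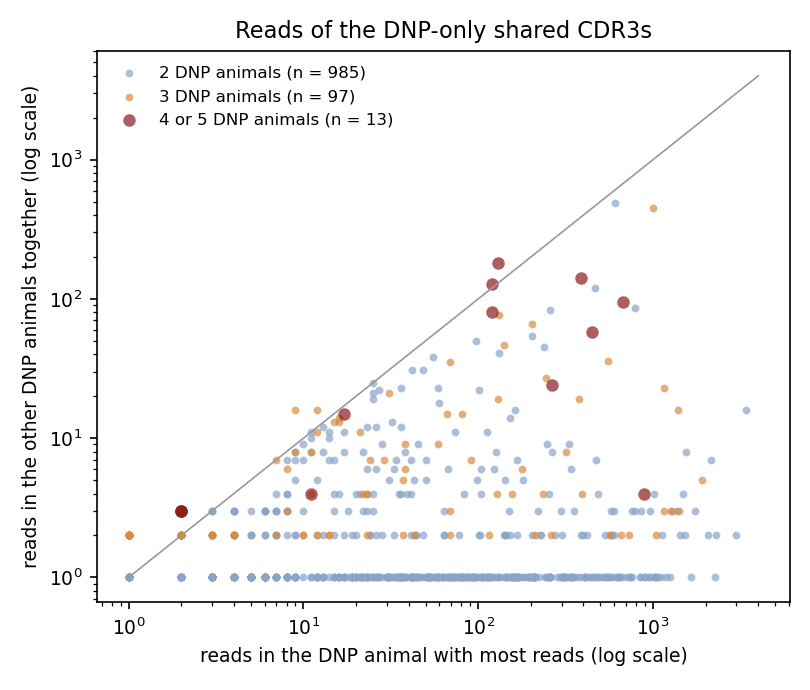
Reads of each member in the DNP animal with the most of them against its reads in the other DNP animals together, both on log axes, with 1 point per member coloured by the number of animals and a line where both are equal. Many points lie at 1 read on the vertical axis, and ARWVWYFDY (608 and 492 reads) lies near the line at the upper right.

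The values on either side of the rule were as follows. On the outside, 84275 CDR3s were found in 1 DNP animal and no HuD animal, with a median of 1 read. A further 258 were found in at least 2 DNP animals and in 1 HuD animal, of which 197 had a single HuD read. Their median number of DNP reads was 4. Counting a CDR3 as present from 2 reads left 258 members, from 5 reads 111, and from 2 sequenced copies 78.

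Member reads had more sequenced copies than other reads in DNP2, DNP3, DNP4 and DNP5, and fewer in DNP1. Copies per read were 1.36, 1.98, 2.34, 1.70 and 1.65 for members of DNP1 to DNP5, against 1.80, 1.397, 1.41, 1.36 and 1.43 for other CDR3s. The means were 1.81 ± 0.369 and 1.48 ± 0.181 (SD, n = 5). A single read supported 54.7 ± 7.51% of members within an animal and 72.6 ± 6.82% of other CDR3s.

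The pairs of animals contributed unequally. DNP3 and DNP4 shared 322 members, 262 of them with no further animal. DNP1 and DNP4 shared 224, DNP2 and DNP5 174, and DNP4 and DNP5 169. At the other end, DNP2 and DNP3 shared 21. A variable domain identical over its whole length was found in 2 animals for 155 members (14.2%), of which 84 were shared by DNP3 and DNP4 and 49 by DNP2 and DNP5. A molecular tag identical over all of its 22 bases was found in 2 animals for 87 members (7.95%). DNP3 and DNP4 had 308 such tags in 64 CDR3s, 52 of them members, and DNP1 and DNP4 had 405 tags in 14 CDR3s, 10 of them members. Pairs of HuD animals shared 3 to 78 tags (median 31.5), and a DNP with a HuD animal 0 to 37 (median 2). Here a tag was matched together with the CDR3. The study, by contrast, reported no sequence and barcode in common between samples. It also described its random tag as too short, and added 10 bases of the CDR3 to it. Why tags were shared was not tested.

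**Figure D3:**
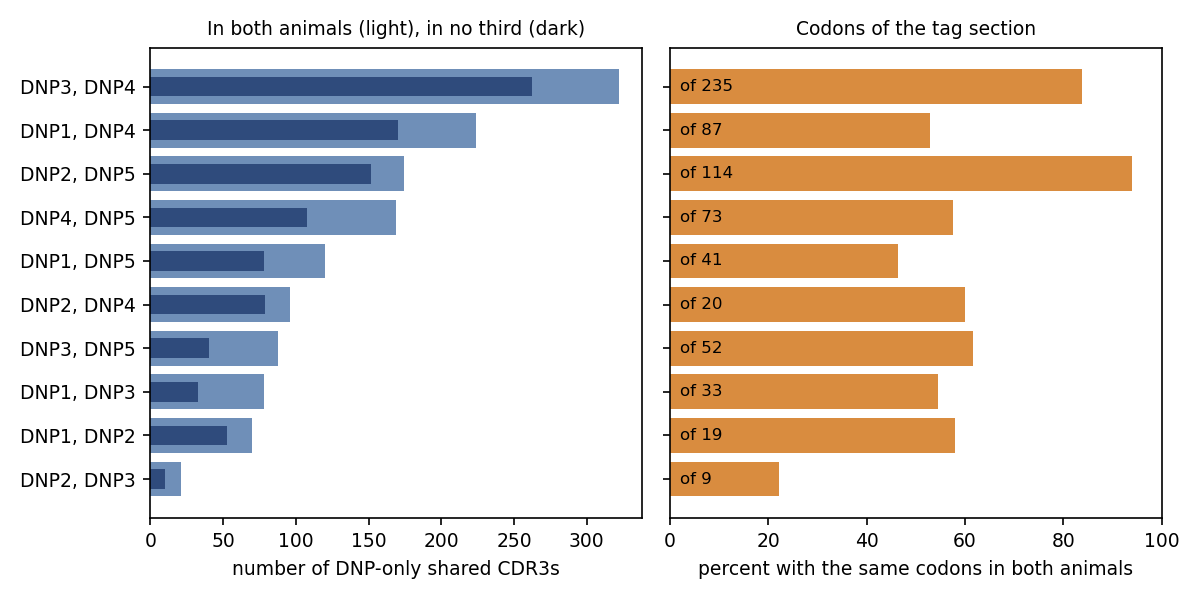
Members shared by each pair of DNP animals, with the dark part of a bar for members in no further animal, and on the right the percent of comparable members with the same codons in both animals. DNP3 with DNP4 had 322 members and DNP2 with DNP3 had 21, while DNP2 with DNP5 had the highest share of same codons (93.9%).

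The codons behind members also depended on the pair. Tags carry a section of the CDR3, and codons could be compared between animals for 580 members (53.0%). Of these, 410 (70.7%) had the same codons in all animals compared and 170 (29.3%) had a difference. Counted over pairs of animals, codons were the same in 71.2% of 683 pairs, against 52.8% of 761 pairs for the HuD-only shared CDR3s. For CDR3s found in both groups, a DNP and a HuD animal had the same codons in 59.8% of 1392 pairs. DNP2 with DNP5 had the same codons in 93.9% of 114 pairs and DNP3 with DNP4 in 83.8% of 235, while the other 8 pairs together had 54.5% of 334. The share was 45.5% of 66 pairs where both animals had at least 10 reads, and 92.0% of 175 where one had at least 100 and the other at most 3. These shares are descriptions, since a CDR3 shared by several animals enters several pairs.

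The V and J segments of members were often, but not always, the same in the sharing animals. The same IGHJ was most frequent in all sharing animals for 1046 members (95.5%), and the same IGHV for 483 (44.1%). For 689 members (62.9%) at least 1 IGHV was named in 2 animals. Among the 58 members with at least 10 reads in 2 animals, 43 (74.1%) had the same leading IGHV. Of the member reads, 11.1% named several IGHV genes, against 14.1% of all productive reads.

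Members were shorter than the other CDR3s of the animals they came from. Their mean length was 10.2 residues (SD 2.98, median 10) with a range of 2 to 19. By animal, members averaged 9.11, 9.92, 10.96, 10.2 and 10.1 residues in DNP1 to DNP5, and other CDR3s 11.8, 12.6, 12.2, 12.2 and 11.6. Members were shorter in 5 of 5 animals, by 1.99 ± 0.648 residues (10.1 ± 0.665 against 12.1 ± 0.404; SD, n = 5; exact two-sided sign-flip test, p = 0.0625, the smallest that 5 animals allow). Weighted by reads the difference was 0.634 residues (exact p = 0.188). Each member counts in every DNP animal that held it, so the animals are not independent in this test or the later ones. Members of up to 6 residues were 13.6% of the whole, against 2.60% of the CDR3s of 1 animal, and those of 15 residues or more were 8.31% against 21.4%.

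**Figure D4:**
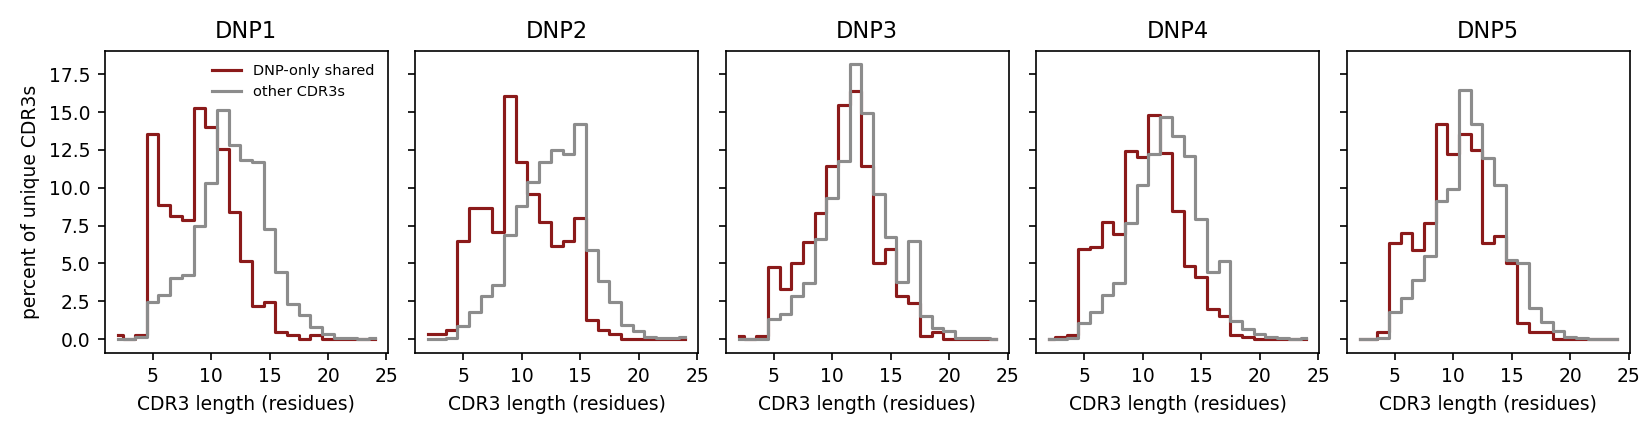
Length of members (DNP-only shared, red) and of other CDR3s (grey) in each DNP animal, as percent of the unique CDR3s of each set by number of residues, with 24 and over in the last class. The red lines lie to the left of the grey ones, with means of 9.11 residues in DNP1 and 10.96 in DNP3 for members against 11.8 and 12.2 for other CDR3s.

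Mean length was lower in members with more sharing animals. Members in 2 animals averaged 10.3 residues, those in 3 averaged 9.39, those in 4 averaged 7.91 and the 2 in all 5 animals averaged 5.5. Members with 1 read in every sharing animal averaged 9.31 residues. Those with at least 100 reads in 1 animal and at most 3 elsewhere averaged 11.9.

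The HuD-only shared CDR3s, chosen by the same rule with the groups exchanged, were shorter still against their own animals. They averaged 9.46 residues, and the within-animal difference was −2.81 ± 0.286 residues (SD, n = 5). The difference for DNP minus that for HuD animals was 0.818 residues (exact two-sided permutation test, 252 relabellings, p = 0.0476). It did not hold at a minimum of 2 reads (0.0829, exact p = 0.794) or with DNP3 and DNP4, and DNP2 and DNP5, counted as 1 animal each (0.0483, exact p = 0.897). Without DNP3 it was 0.425 (exact p = 0.198), without DNP5 0.540 (exact p = 0.333), and without DNP4 0.638 (exact p = 0.0556). It was also not called without HuD2 (0.652, exact p = 0.143), HuD3 (0.723, exact p = 0.119), HuD4 (0.861, exact p = 0.0635) or HuD5 (0.650, exact p = 0.127).

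IGHJ2, which often encodes the ending FDY, had a higher share among members than among other CDR3s in every DNP animal. IGHJ2 made up 57.3 ± 3.71% of members and 51.1 ± 2.98% of others (SD, n = 5), a difference of 6.22 ± 3.56 percentage points in the same direction in 5 of 5 animals. IGHJ1 made up 8.07 ± 1.70% against 10.6 ± 1.10%, and IGHJ3 18.0 ± 1.06% against 20.5 ± 1.33%, both lower in 5 of 5 animals. For these the exact sign-flip test gave p = 0.0625 and an adjusted p = 0.0833 over the 4 J segments. IGHJ4 made up 16.6 ± 4.78% against 17.8 ± 4.21% and was higher in 2 of 5 animals. Compared with the HuD-only shared CDR3s, none of the 4 J segments was called (0%), with adjusted p between 0.180 and 0.381 by the exact permutation test. At an unadjusted p under 0.05 the number was also 0. In HuD animals the IGHJ2 difference of HuD-only shared from other CDR3s was 9.51 ± 2.75 percentage points (SD, n = 5), higher in 5 of 5. IGHJ1 and IGHJ3 differed there by −1.52 and −3.16 points and were higher in 0 of 5. Weighted by reads, the differences within DNP animals were 0.268 points for IGHJ2, 2.16 for IGHJ1 and −2.49 for IGHJ3.

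The last 3 residues of the members followed the J segments. FDY closed 28.3%, MDA 13.5%, FAY 11.2%, FDF 8.49% and WDY 1.83%. Among CDR3s of 1 animal, FDY closed 25.8%, MDA 12.2%, FAY 13.2% and FDF 9.88%. In the HuD-only shared CDR3s these endings closed 31.7%, 9.34%, 13.2% and 9.46%. WDY closed loops such as ARHVLPLRVWDY, ARYSLRRVWDY and ARHGRREWDY.

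Among the inner residues, without the first 2 and the last 3, glycine, tryptophan and asparagine had higher shares in members than in other CDR3s of every DNP animal. Glycine made up 17.4 ± 1.37% of them against 14.8 ± 0.624% in other CDR3s, tryptophan 5.83 ± 0.489% against 4.39 ± 0.407%, and asparagine 6.17 ± 0.793% against 4.46 ± 0.234% (SD, n = 5). Each was higher in 5 of 5 animals, and C, E, F, I, R, T and V were each lower in 5 of 5 (exact sign-flip test, p = 0.0625, adjusted p = 0.125 over 20 residues). HuD-only shared CDR3s also had a higher share of glycine than other CDR3s of their animals, 19.5 ± 1.24% against 14.8 ± 0.415%. The same held there for tryptophan, with 5.22 ± 0.425% against 4.11 ± 0.197%, and for asparagine, with 6.17 ± 0.633% against 4.46 ± 0.380%. All 3 were higher in 5 of 5 HuD animals.

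Against the HuD-only shared CDR3s, the lowest p-values were those of alanine, glutamic acid and methionine. The residue before the last 3 counts as inner, so the A of AMDA and the V of VMDA were included. Alanine made up 5.21 ± 1.16% of the inner residues of members and 4.87 ± 0.947% of those of other CDR3s in DNP animals, against 1.93 ± 0.192% of shared and 3.405 ± 0.219% of other CDR3s in HuD animals. The difference of differences was 1.81 percentage points for alanine, −1.41 for glutamic acid and 0.442 for methionine (exact permutation test, p = 0.00794, the smallest possible, adjusted p = 0.0529). None of 20 residues was called (0%), and 7 had an unadjusted p under 0.05. The count was 11 without DNP1, 4 without DNP4, 4 without DNP5 and 4 with IGHJ4 left out, where alanine gave 0.917 (adjusted p = 0.0397).

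Short strings inside the loops came back in many members. The string YYA was the most frequent, in 54 members (4.93%), and it precedes the ending MDA of IGHJ4 in sequences such as ARSGYYAMDA. By mean over the DNP animals, YYA was in 4.88% of members and 2.45% of other CDR3s, and it was in 1.31% of CDR3s of 1 animal. It was in 0 HuD-only shared CDR3s, of which 1 ended in AMDA. YGG was found in 53 members, GYY in 51, NSG in 51, YGY in 50 and GGY in 43. YGG was in 4.84% of members and 4.25% of CDR3s of 1 animal. GYY (4.66% against 4.87%), YGY (4.57% against 4.58%) and GGY (3.93% against 4.84%) were no more frequent in members than in those. NSG made up 4.72% of members against 1.98% of other CDR3s and was more frequent in 5 of 5 animals. Among the comparison sets, NSG was in 3.11% of HuD-only shared CDR3s, 2.39% of those in both groups and 1.63% of those of 1 animal. YWY, with 40 members, was less frequent among members in 5 of 5 animals. GSY, GYN and NYG were also in 40 members each (3.65%), against 3.52%, 3.27% and 2.97% of CDR3s of 1 animal. No test was run on strings, which were ranked on these sequences.

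Members paired most with IGHV5-7 (mean 9.70% of members), IGHV5-22 (9.39%), IGHV5-20 (8.81%), IGHV3-1 (7.60%) and IGHV5-25 (6.97%). IGHV5-22 was uneven between animals, with 17.6% in DNP3. Numbers of unique CDR3s per IGHV were compared between members and other CDR3s of the same DNP animals with edgeR's quasi-likelihood test and Benjamini-Hochberg adjustment. Of 73 genes, 3 were called (4.11%), all higher among members, and 12 had an unadjusted p under 0.05. A member counts in each animal that held it, so the animals are not independent here either.

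IGHV1-43 took 5.91%, 0.926%, 7.14%, 6.64% and 2.41% of members in DNP1 to DNP5, against 3.39%, 0.5495%, 3.61%, 3.23% and 1.42% of other CDR3s. It was higher among members in 5 of 5 animals (log2 difference 0.91 ± 0.20 SE, edgeR adjusted p = 0.0148), and DNP2 was low in both sets. Its share was 1.24% of shared and 0.786% of other CDR3s in HuD animals, and the difference between the groups was 0.21 (edgeR adjusted p = 0.826).

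IGHV6-6 took 4.19%, 1.23%, 0.952%, 1.55% and 2.63% of members in DNP1 to DNP5, against 1.30%, 0.359%, 0.830%, 0.591% and 1.18% of other CDR3s. It was higher among members in 5 of 5 animals (log2 difference 1.29 ± 0.29 SE, edgeR adjusted p = 0.0148), and DNP1 had the largest share. In HuD animals it was also higher among shared CDR3s in 5 of 5 animals, with 1.32 ± 0.615% of shared and 0.620 ± 0.208% of other CDR3s (SD, n = 5). For IGHV2-30, the shares of DNP1 to DNP5 were 1.72%, 1.23%, 2.14%, 1.98% and 1.09% of members, against 0.482%, 1.31%, 0.651%, 0.595% and 0.494% of others. It was higher in 4 of 5 animals, all but DNP2 (log2 difference 1.33 ± 0.33 SE, edgeR adjusted p = 0.0214). In HuD animals it took 1.29 ± 0.439% of shared and 1.12 ± 0.211% of other CDR3s, and was higher in 3 of 5. Without DNP1, none of 69 genes was called by edgeR (9 at an unadjusted p under 0.05), with IGHV6-6 at 0.54 (edgeR adjusted p = 0.467). DESeq2 with its own size factors called none of these and 2 others, IGHV5-20 and IGHV5-25, as lower among members. Counted by reads in place of unique CDR3s, 20 genes were called, all lower among members.

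Against the HuD-only shared CDR3s, 1 of 89 genes was called (1.12%). IGHV3-1 took 5.91%, 12.04%, 6.90%, 6.78% and 6.35% of members in DNP1 to DNP5, against 5.42%, 9.57%, 3.72%, 5.48% and 2.62% of other CDR3s. In HuD animals it took 2.17 ± 0.808% of shared and 2.89 ± 0.647% of other CDR3s (SD, n = 5). The share was higher among shared CDR3s in 5 of 5 DNP animals and in 0 of 5 HuD animals (log2 difference of differences 0.98 ± 0.28 SE, edgeR adjusted p = 0.0410). It was called in 5 of 18 settings, with values between 0.80 and 1.49, and not with TMM scaling, DESeq2 or a minimum of 2 reads. IGHV5S11, a gene rare in HuD animals and in DNP2, took 0.951 ± 0.296% of members and 1.60 ± 0.992% of other CDR3s (log2 difference −0.64 ± 0.45 SE, edgeR adjusted p = 0.513).

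Many members differed from another member by a single residue. Of the 1095, 431 (39.4%) had such a neighbour of the same length among members, and they formed 124 groups, 19 of them with at least 5 members. In the HuD-only shared CDR3s the share was 54.9%, with 208 groups, 44 of them of at least 5. The largest group of members held 28.

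**Figure D5:**
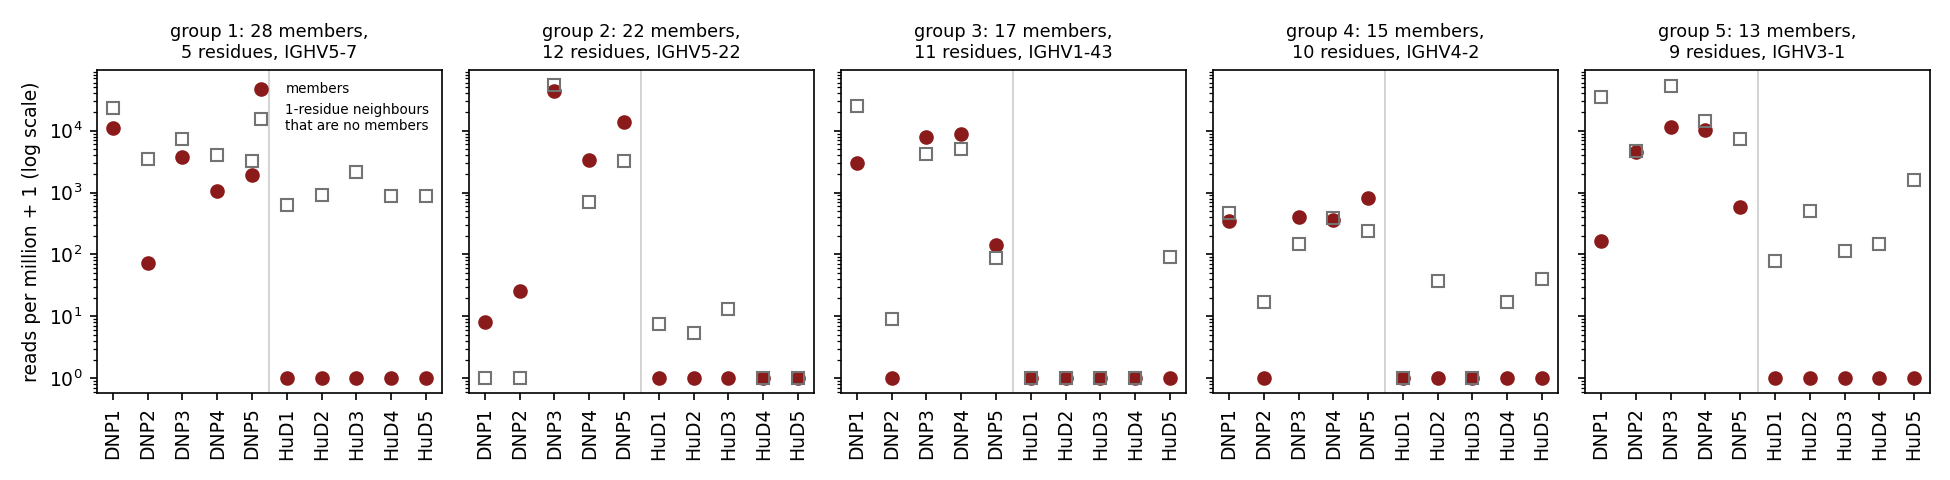
RPM plus 1 (log axis) of the 5 largest neighbour groups in each animal, DNP animals left of HuD animals, with filled points for members and open squares for CDR3s 1 residue away that are not members. In the second group, of loops such as VRWYNSGYYFDY, the HuD animals had between 0 and 2 neighbour reads.

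The largest group had 28 members of 5 residues, such as AKPDY, ARPDA, ARPDH, ARPDN and ARPDD. Its reads numbered 1538, 9, 229, 278 and 176 in DNP1 to DNP5, and 56.1% of them were annotated as IGHV5-7. AKPDY had 386, 9, 39 and 93 reads in DNP1, DNP3, DNP4 and DNP5, and ARPDA 448, 52, 5 and 1. DNP1 held most of both. These loops have close relatives outside the members, since the HuD animals had between 640 and 2142 RPM of CDR3s 1 residue away.

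The second group had 22 members of 12 residues around VRWYNSGYYFDY. ARWFNSGYYFDY had 1154, 1 and 2 reads in DNP3, DNP4 and DNP5, and ARWYNSGYCFDY had 97 in DNP5 and 50 in DNP3. The group had 1, 3, 2635, 884 and 1284 reads in DNP1 to DNP5, so it lay almost wholly in DNP3, DNP4 and DNP5. IGHV5-22 was named in 82.4% of its reads. In VRWYNSGYYFDY the glycine codon after the serine was GGG in DNP3 and in the 1 read of DNP4, and GGA in DNP5. In ARWYNSGYCFDY, which had no read in DNP4, it was GGG in DNP3 and GGA in DNP5. The HuD animals had between 0 and 2 reads of neighbours.

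The third group had 17 members of 11 residues, with ARGSDGVWFAY, ARGGSGIWFAY, ARGGYGIWFAY and ARGGDGVWFAY among them. Their reads numbered 413, 0, 478, 2267 and 13 in DNP1 to DNP5, and 91.8% were annotated as IGHV1-43 and 98.8% as IGHJ3. ARGSDGVWFAY had 844 reads in DNP4 and 1 in DNP3, and ARGGDGVWFAY 265 in DNP1 and 8 in DNP4. Codons of ARGGSGIWFAY, ARGGFGIWFAY and ARGGYGIWFAY differed between animals, as shown above, while ARGGDGVWFAY was ggtgacggg over residues 4 to 6 in DNP1 and in DNP4. Of the HuD animals, HuD5 had 19 reads of neighbours and the others 0.

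The fourth group had 15 members of 10 residues, such as ARNNYYAMDA. Of these, 13 ended in AMDA, and the others were ARTAYYALDA and ARSGYYAMDV. The group had 49, 0, 24, 92 and 75 reads in DNP1 to DNP5. IGHV4-2 was named in 62.1% of its reads. DNP2, whose IGHJ4 sequences end mostly in VMDA, had none. The fifth group had 13 members of 9 residues such as ARWGDYFDY, with 23, 551, 691, 2656 and 53 reads in DNP1 to DNP5, and 92.8% of these reads were annotated as IGHV3-1. It was present in every DNP animal, and the HuD animals had between 76.8 and 1581 RPM of its neighbours. A smaller group of 8 members around ARGNYGGYDY was read mostly with IGHV2-30 (69.6%). The 7 members around ARHVLPLRVWDY had 3899 reads in DNP3 and 24 in DNP4, and no neighbour in a HuD animal.

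Being absent from HuD animals did not mean that nothing similar was present there. A CDR3 1 residue away was found in a HuD animal for 567 members (51.8%). The share was 80.04% for members of up to 9 residues, 41.3% for those of 10 to 12 and 15.7% for those of 13 or more. These shares were not computed for other CDR3s of DNP animals, so they cannot be read as particular to members.

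The rule was also applied with 1 DNP and 1 HuD animal left out, for all 25 such pairs, so that the sequences could be looked for in animals the choice had not used. Between 496 and 840 CDR3s were chosen each time. A median of 10.1% of them was found in the left-out DNP animal, against 4.64% in the left-out HuD animal, and the share was higher in the DNP animal in 22 of 25 pairs. By DNP animal the share was 9.94%, 4.19%, 9.83%, 19.4% and 11.3% for DNP1 to DNP5, and by HuD animal 3.81%, 6.12%, 3.33%, 5.05% and 5.50%. DNP2 lay within the HuD range and DNP4, the deepest library, lay highest. After thinning to equal reads the medians were 10.96% and 3.05%, and with IGHJ4 left out 8.90% and 5.50%. The 25 pairs share animals, so no test was made over them. When DNP4 was left out, DNP3 stayed among the animals used for the choice, and the same holds for DNP2 and DNP5. The held-out shares were not computed with these pairs counted as 1 animal each, so they include the overlap within the pairs.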

How the data were processed

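Spleen RNA of 10 Wistar rats was sequenced as 1 immunoglobulin heavy-chain library per animal. The study merged read pairs with PEAR, collapsed them by molecular tag with MIGEC (minimum UMI count 1; a tag of 22 bases, of which 10 come from the CDR3) and annotated them with High-VQuest; their versions, and the germline set behind the annotation, were not given in the sources used here. The authors deposited 1 line per collapsed read, with the number of sequenced copies as raw counts. Collapsing at a minimum of 1 keeps tags with sequencing errors as extra reads, which can add single-read CDR3s.

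Productive reads were tabulated by CDR3, IGHV and IGHJ with Python 3.11.15, numpy 2.4.6, pandas 2.3.3 and scipy 1.17.1. Groups came from the sample labels. The study describes the rats as outbred and as littermates. Length, IGHJ and residue shares were averaged over unique CDR3s per animal and compared by exact sign-flip tests over the 5 DNP animals and exact permutation tests over 252 relabellings. Inner residues leave out the first 2 and the last 3. Numbers of unique CDR3s per IGHV, for genes with at least 20, were tested with edgeR 4.0.16 in R 4.3.3 on the totals as library sizes, with DESeq2 1.42.0 as an alternative. P-values were adjusted by Benjamini-Hochberg, with a threshold of 0.05. The tests treat animals as independent, although each member or HuD-only shared CDR3 counts in every animal that held it. In 100 simulated runs, edgeR recovered 45%, 73.4% and 91% of genes changed 2-, 4- and 8-fold within DNP animals and 17.8%, 47.6% and 66% between groups, with 4.38% and 4.23% false calls. The simulated animals were drawn independently, so these rates do not cover the effect of CDR3s shared between animals.

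Named were the IGHV genes that ranked in the top 5 by mean share of members, up to 10 of those past the threshold, IGHV1-43, IGHV3-1 and IGHV5S11, all IGHJ, members in 4 or 5 DNP animals, the 10 with the most reads, the 10 with the highest smallest read number, up to 6 of each of the 5 largest neighbour groups and the 10 inner strings in the most members; CDR3s of 15 residues or more are not printed. Other named sequences were chosen after their values were seen. The members and lists were chosen with earlier results of these data known. Neighbours are CDR3s of equal length that differ at 1 residue. Alternatives were a minimum of 2 or 5 reads, 2 sequenced copies, thinning to 60647 reads, weighting by reads, another background, scaling or filter, a replicate block, leaving out each animal and, chosen after seeing the data, counting DNP3 with DNP4 and DNP2 with DNP5 as 1 animal each and leaving out IGHJ4. Intervals and limits for 0 reads cover counting error only.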

Additional observations from a re-analysis of the deposited data

Results flagged for a closer look

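DNP2 stood apart from the other DNP animals in several values. Of its IGHJ4 CDR3s, 3.26% ended in AMDA and 65.8% in VMDA, and its share of IGHV3-1 among members was 12.04%, the highest of the group. HuD1 stood apart in asparagine, with 2.74 percentage points more in HuD-only shared CDR3s than in its others. HuD4 stood apart in copies, with 4.72 sequenced copies per read of its HuD-only shared CDR3s. In all, 52 groups of 5 animals were looked at and 5 held an animal this far from the rest, where chance gives about 1 in 20 groups. The DNP and HuD groups also differed in 2 tests. The length of shared minus other CDR3s was −1.99 residues in DNP and −2.81 in HuD animals, which differ by 0.818 (exact permutation test, p = 0.0476). The log2 difference of IGHV3-1 between shared and other CDR3s was 0.98 greater in DNP than in HuD animals (edgeR adjusted p = 0.0410).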

How the results depend on the processing

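The shorter length of members within DNP animals kept its direction under every setting run, at −0.634 residues weighted by reads, −2.76 with the pairs DNP3 with DNP4 and DNP2 with DNP5 counted as 1 animal each, and between −2.39 and −1.60 with each animal left out. The length difference between DNP and HuD animals was 0.790 (exact permutation p = 0.0635) against CDR3s of 1 animal, 0.0829 at 2 reads, 0.751 thinned (exact permutation p = 0.0714), 0.0483 with pairs merged, 0.753 without IGHJ4 (exact permutation p = 0.0714) and between 0.425 and 1.28 with each animal left out. The cause was not tested. Members numbered 258 at 2 reads, 111 at 5 reads, 701 thinned, 78 at 2 copies, 681 with pairs merged and between 476 and 1164 with each animal left out, the lowest without DNP4 (without DNP5, 717). The J segments called between groups numbered 1 weighted by reads and 0 to 2 with each animal left out, and residues 4 without IGHJ4 and 0 to 11 with each animal left out. The held-out difference was 5.43 percentage points and 11.7 at 2 reads.

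IGHV genes called within DNP animals numbered 20 by reads, 6 with pairs merged, 6 without IGHJ4 and 0 to 5 with each animal left out. Counted by reads, IGHV1-43 was −0.77, IGHV6-6 −1.92, IGHV2-30 −0.079 and IGHV3-1 −0.21 on the log2 scale. Genes called between groups numbered 0 with TMM, DESeq2, no filter, 2 reads or pairs merged, 2 by reads, 2 without IGHJ4 and 0 to 2 with each animal left out. With DESeq2 the median log2 value over genes shifted by −0.14 within DNP animals and by 0.55 between groups.

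Between animals with the same replicate number, the correlations of deviations were 0.0612, 0.165, −0.237, 0.236 and 0.0153. They were taken over length, IGHJ and residue measures that depend on each other, so they cannot exclude that the numbers pair the animals. With a block over the replicate numbers the length difference was 0.818 (exact sign-flip test, p = 0.125).

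Depth limits absence, since the libraries differ in reads and most members rest on a single read in 1 animal. Immunization, carrier and the IGHJ4 and IGHV difference cannot be told apart outside DNP2, and p-values over 5 animals have a lowest value of 0.0625 within DNP animals.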
